A study of Mus musculus with 24 samples.

Results

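Solute carrier genes encode the membrane proteins that move ions, sugars, amino acids, metals and drugs into and out of cells and organelles. The genes described here are the protein-coding mouse genes whose symbol begins with Slc and a digit and whose transcript carried at least 1 m6A peak over an exon, on its own strand, in any of 12 kidneys. Slc12a1, Slc12a3, Slc22a2, Slc47a1 and Slc31a1 were left out by the rule, and 1 of these 5 had a peak. Of the other 366 annotated solute carrier genes, 127 (34.7%) had a peak and 239 had none. The share over all annotated protein-coding genes was 35.4% (7774 of 21951). The 127 genes held 780 of the 91013 peaks in the 12 lists, at 186 of 16801 loci. Slc4a1ap, which encodes the adaptor protein kanadaptin, and Slc7a6os, named for lying opposite Slc7a6, entered by their symbols alone and are not carriers.

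N6-methyladenosine (m6A) was profiled by MeRIP-seq, in which RNA fragments bound by an m6A antibody are sequenced. The whole kidneys came from male C57BL/6 mice, aged 8 weeks when assigned to groups. For 14 days, the control group (4 mice) and the injury group (IG, 4 mice) received vehicle intraperitoneally each day. The treatment group (TG, 4 mice) received berberine at 20 mg/kg intraperitoneally each day instead. Control mice were then injected intravenously with vehicle, and IG and TG mice with cisplatin at 20 mg/kg. Kidneys were taken 72 h after the injection, and IG was compared with control (IvC) and TG with IG (TvI). Both comparisons share the IG kidneys, and no group received berberine without cisplatin.

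Each Slc number is a family with its own substrates, and a kidney tubule cell uses many of them together: apical carriers take glucose, amino acids, phosphate and sulfate out of the filtrate, and basolateral carriers pass them to the blood. Cisplatin itself enters tubule cells through carriers. m6A is laid down on mRNA by a methyltransferase complex that favours the sequence RRACH, most often in long exons and near the stop codon, and reader proteins that bind it alter splicing, translation and decay of the transcript.

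A listed peak is a stretch of RNA that the peak caller found enriched, with a score of -10 times log10 of its p-value. The lowest score was 13.02, and the score of a p-value of 0.05 is 13. A score is a strength of call that grows with the amount of RNA as well as with methylation, so neither it nor the presence of a peak is a methylation level. Read depth is unknown, since no counts of reads are given, and a missing peak may lie just under the caller's threshold. The input libraries and the RNA-seq were not analysed here, and in whole kidney fewer cells of a type and less RNA per cell cannot be told apart. Overlapping peaks of the 12 kidneys were joined into loci, numbered from the 5′ end of each gene.

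The sequences below are 25 bases around the m6A core GGACT (capitals) nearest the middle of the loci that the results turn on. They were read 5′ to 3′ along the RNA strand, as DNA letters, from the GRCm38.p6 genome of RefSeq. The first 4 come from loci that were present in all kidneys of one group and absent from another, and the last 5 from loci with a peak in all 12 kidneys. The Slc5a3 and Slc30a6 stretches lie in coding sequence and the other 7 in 3′ UTRs.
Slc38a1 locus 1, chr15:96576101-96576125, minus strand: cacccgacatGGACTgtccgagggc
Slc5a3 locus 1, chr16:92079147-92079171, plus strand: cctaaacattGGACTttttgctgtg
Slc7a1 locus 1, chr5:148331760-148331784, minus strand: cagcccgcgtGGACTagggtgacat
Slc19a3 locus 2, chr1:83012859-83012883, minus strand: gtgtcctcctGGACTttgtgtgatc
Slc2a1 locus 2, chr4:119136938-119136962, plus strand: ataggggtccGGACTccattttagg
Slc12a7 locus 3, chr13:73815497-73815521, plus strand: agcacactgaGGACTgtccaccctc
Slc25a48 locus 3, chr13:56473008-56473032, plus strand: ctgggatagaGGACTccctagagtc
Slc30a6 locus 1, chr17:74423400-74423424, plus strand: gttcagccaaGGACTcgcatttcca
Slc25a33 locus 1, chr4:149744506-149744530, minus strand: taacttaagaGGACTgaggattgag
GGACT was found in 52.2% of the 186 solute carrier loci and in 38.8% of 16367 other loci. The solute carrier loci were longer, with a median of 641.5 bp against 280 bp, and per kilobase they held 1.27 GGACT against 1.14, with 1.02 and 1.03 on the opposite strand. Slc2a4 locus 1, Slc51a locus 2, Slc30a4 locus 2 and Slc9a2 locus 1, which also separated control from IG, held no GGACT. Slc1a2 locus 1, of the same kind, and Slc39a8 locus 3, with a peak in all 12 kidneys, held 1 each. Both lay in an exon of another transcript and are not shown.

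The 12 lists held 5901 to 9579 peaks, with 8531 to 9579 in control, 6745 to 8357 in IG and 5901 to 6753 in TG kidneys, so list length moved with the groups. Of 38 marker genes, proximal tubule markers had almost no listed peak (1 of 6, Cubn in 1 kidney), while all 4 podocyte markers had one. Peaks were listed for 1 of 4 thick limb and distal tubule, 2 of 4 collecting duct, 3 of 4 endothelial, 3 of 8 leukocyte, 2 of 4 fibroblast and muscle and 2 of 4 injured tubule markers. Peaks in the injured tubule markers numbered 1 in every control, 2 to 3 in IG and 1 to 3 in TG kidneys, and those in leukocyte markers 1 to 2, 1 to 3 and 1 to 4. The injury marker Havcr1 was listed in 0 control, 4 IG and 3 TG kidneys and the leukocyte integrin Itgam in 0, 4 and 4, but Vcam1, also an injured tubule marker, was in 4, 3 and 3, and the leukocyte markers Cd74 and Ptprc were in 4, 3 and 1 and in 1, 0 and 0. The collecting duct marker Atp6v1b1 was in 0, 4 and 4 and the distal marker Egf in 0, 3 and 3. Peaks in endothelial markers numbered 2 to 5 in control, 1 to 2 in IG and 1 to 4 in TG kidneys, with Flt1 in 4, 2 and 1, and those in podocyte markers 1 to 3, 1 to 2 and 1 to 3, with Synpo in 3, 0 and 1 and Nphs1 in 1, 4 and 2. The part of cell makeup and of list length in the results below was not tested beyond the equal-length lists given with them.

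Peaks were spread over every class of carrier, and no class was without members. The carriers of phosphate, sulfate, carboxylates and urea had the highest share with a peak (16 of 35 genes, 45.7%), and those of vitamins, choline, fatty acids and heme the lowest (6 of 24, 25%). In between were the carriers of nucleosides, nucleotide sugars and acetyl-CoA (16 of 39), of zinc, iron and copper (11 of 28), of amino acids, peptides and neurotransmitters (27 of 74), of organic ions and bile acids (12 of 34) and of sugars (10 of 30). Lower shares were found for calcium, magnesium and cation-chloride transport (6 of 19), acid-base and anion exchange (10 of 36) and the mitochondrial carriers (13 of 47). Among the larger families, the monocarboxylate transporters of Slc16 (9 of 14 genes), the amino acid carriers of Slc7 (9 of 16, Slc7a6os included) and the nucleotide sugar carriers of Slc35 (14 of 27) had a peak in most of their genes. In the Slc6 family of sodium- and chloride-dependent transporters only 1 of 21 genes, Slc6a15, had a peak.

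Of 40 carriers known from the kidney tubule, 17 (42.5%) had a listed peak, beside 34.7% of all solute carriers and 35.4% of all genes. The list of 40 was chosen with earlier results known, and the difference in share was not tested. Several of the best known had none. Of 17 apical proximal tubule carriers, 7 had a peak, and Slc34a1 (sodium-phosphate cotransport), Slc5a2 (SGLT2, glucose) and Slc6a19 (neutral amino acids) had none in any of the 12 kidneys. The sodium-glucose cotransporter Slc5a1 had a peak in 11 kidneys and the sodium-proton exchanger Slc9a3 in 10. Of 11 basolateral carriers, 4 had a peak: Slc7a8 (11 kidneys), Slc4a4 (10), Slc26a1 (4, at a locus that also covers the opposite-strand gene Idua) and Slc22a6 (1), whereas the organic anion carrier Slc22a8 and the glucose carrier Slc2a2 had none. Of 12 distal nephron and collecting duct carriers, 6 had a peak, and the cotransporters Slc12a2 (NKCC1) and Slc12a7 (KCC4) had one in all 12 kidneys. Since proximal tubule markers outside the carriers also lacked peaks, a gene without a listed peak was not read as a gene without RNA.

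Among 11 nutrient carriers known to respond to cell stress, 6 had a peak. Slc2a1, the glucose transporter GLUT1, had one in every kidney. Slc38a1 was listed in no control and in all IG and TG kidneys, Slc7a5, the large neutral amino acid carrier LAT1, in 2 control, 4 IG and 4 TG kidneys, and Slc7a1, the cationic amino acid carrier CAT1, in 4 control, 0 IG and 2 TG kidneys. Slc16a1 was listed in 3, 0 and 1 kidneys and Slc7a11 in 1 IG kidney. Of 3 genes that the study itself took from these samples, which is not independent evidence, Slc2a5 was listed in 3 control, 2 IG and 0 TG kidneys, Slc16a7 in 0, 2 and 1, and Slc5a4a in none.

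The number of solute carrier peaks in the full lists overlapped between control and IG kidneys, and every TG kidney had fewer than every control, an order that turned round in the means with lists of equal length. Their number was 72, 65, 71 and 78 in control replicates 1 to 4, or 71.5 ± 5.32 (SD, n = 4). It was 50, 75, 93 and 61 in the IG kidneys (69.8 ± 18.6) and 63, 49, 48 and 55 in the TG kidneys (53.8 ± 6.90). IG kidneys covered the whole range, from below the lowest control to above the highest, and overlapped with both other groups. Genes with a peak numbered 56.5 ± 4.80 in control, 53.8 ± 12.8 in IG and 42.5 ± 4.43 in TG kidneys. IG replicate 3, which also had the longest IG list, held the most (69 genes) and IG replicate 1 the fewest (39). As a share of each kidney's own peaks the solute carriers took 0.798% ± 0.0285 in control, 0.931% ± 0.176 in IG and 0.841% ± 0.0783 in TG, and these ranges overlapped. With 5901 peaks taken from every kidney, the number of genes was 34.3 in control (32 to 38), 43 in IG (31 to 50) and 39.3 in TG (37 to 42), so the order of the groups depended on list length. Solute carrier peaks then numbered 42.5 in control (40 to 47) and 50 in TG (47 to 54), the reverse of the order in the full lists, with both groups touching at 47. Among scores at or above the median they numbered 30.75 in control (27 to 34) and 21.75 in TG (18 to 25), the order of the full lists.

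**Figure D1:**
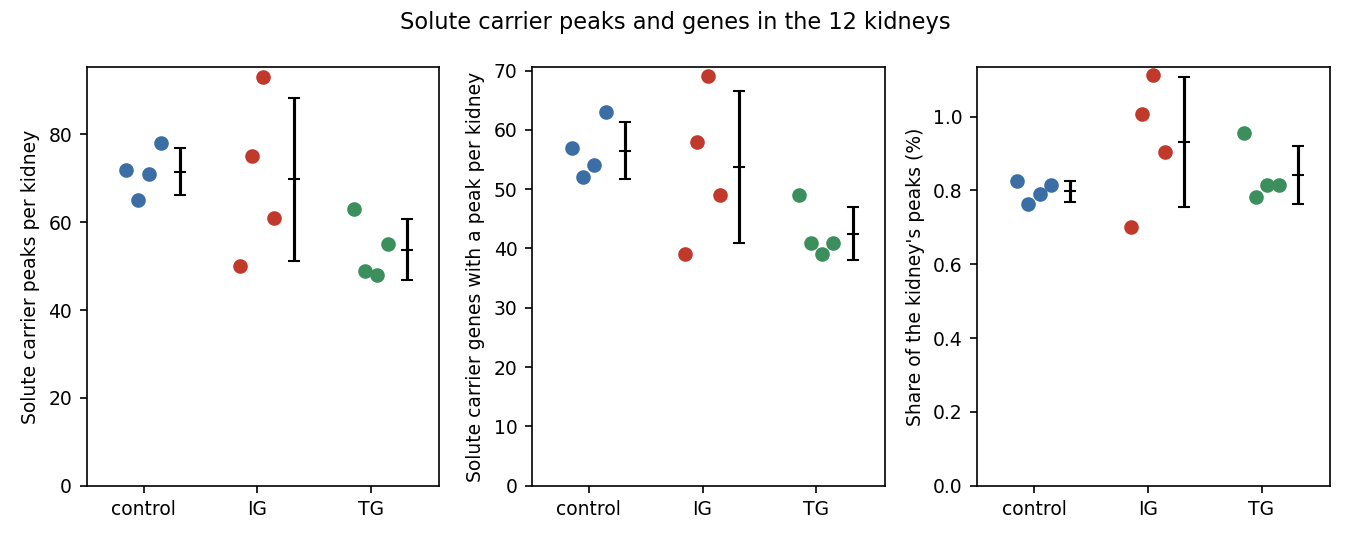
Solute carrier peaks (left), genes with a peak (middle) and share of the kidney's peaks (right, %) in 4 control, 4 IG and 4 TG kidneys. Points are kidneys, and black bars give the group mean ± SD. The IG kidneys spread from 50 to 93 peaks, across the control range of 65 to 78, and the TG kidneys from 48 to 63.

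By class the groups mostly overlapped. Sugar carriers had 7 to 10 peaks per control kidney, 3 to 7 per IG kidney and 3 to 6 per TG kidney, touching at 7. Zinc, iron and copper carriers had 9 to 13, 6 to 11 and 6 to 8, and nucleoside and nucleotide sugar carriers 7 to 10, 6 to 8 and 4 to 6. Carriers of vitamins, choline, fatty acids and heme had 2 peaks in every control kidney, 1 to 3 in IG and 0 to 1 in TG kidneys. In these 4 classes control and TG kidneys did not overlap, beside whole lists that did not overlap between these groups either. The carriers of phosphate, sulfate, carboxylates and urea ranged from 1 to 16 peaks within IG alone, against 2 to 7 in control and 2 to 8 in TG.

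**Figure D2:**
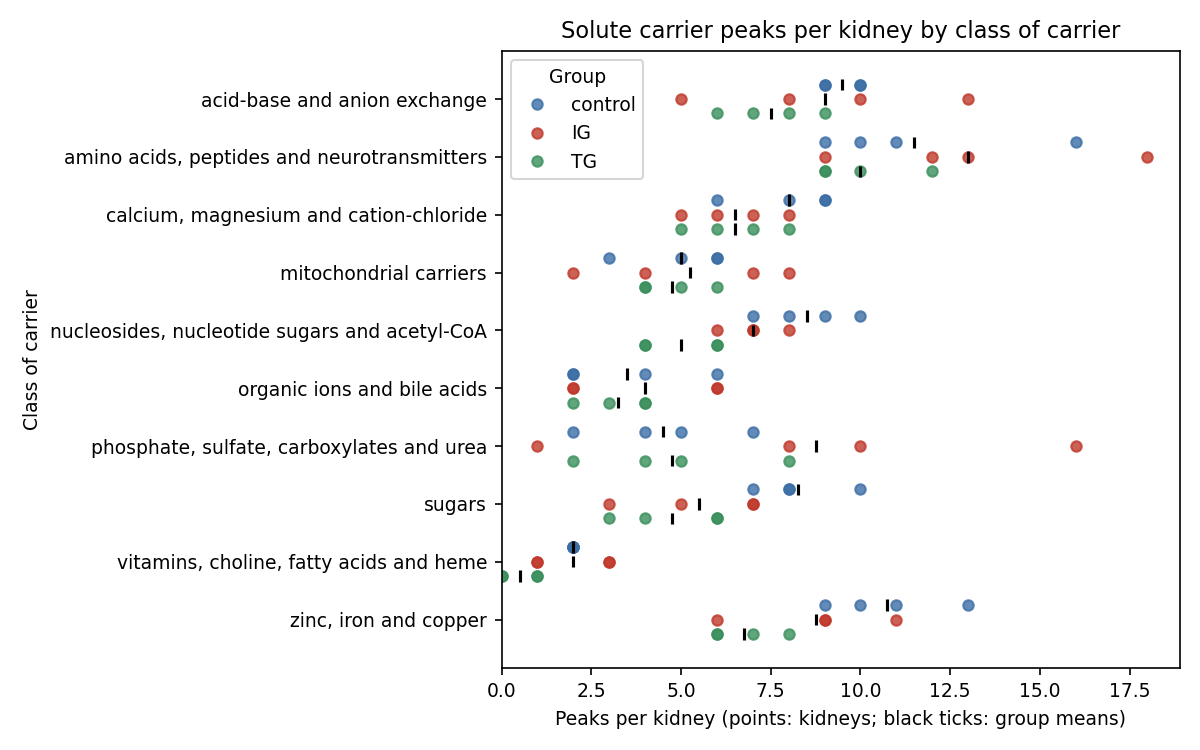
Peaks per kidney (x axis) for 10 classes of carrier (y axis). Points are single kidneys coloured by group and black ticks are group means. Control kidneys lie at 7 to 10 peaks for sugar carriers and TG kidneys at 3 to 6, whereas IG kidneys spread from 1 to 16 for phosphate, sulfate, carboxylate and urea carriers.

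The shares of peaks in the UTRs, above all the 3′ UTR, were higher for solute carriers than for other genes, and the share in the CDS was lower. Midpoints in the 3′ UTR made up 28.1% ± 3.83 (SD, n = 12 kidneys) of solute carrier peaks and 11.2% ± 0.675 of all other peaks, and the solute carrier share was higher in 12 of 12 kidneys. The coding sequence (CDS) away from the start and stop codons held 39.9% ± 3.94 against 61.6% ± 1.42, lower in 12 of 12 kidneys. The stop codon segment, reaching 200 nt to either side, held 17.1% against 13.6%, and the 5′ UTR 4.16% against 1.18%. With segments of 100 nt these were 8.36% against 6.33%, higher for solute carriers in 8 of 12 kidneys, and 5.12% against 2.48%. The start codon segment held 10.7% against 12.5%, but the direction was not uniform: the solute carrier share was 14.3% in control, 9.55% in IG and 8.39% in TG, and with segments of 100 nt it was 7.48% against 7.12%. The 3 groups overlapped in the 3′ UTR share of solute carrier peaks, with 23.6% to 31% in control, 24.7% to 34.4% in IG and 25% to 34.5% in TG. The 3′ UTR and CDS differences kept their direction with narrower codon segments and when peaks were placed by most exonic bases.

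**Figure D3:**
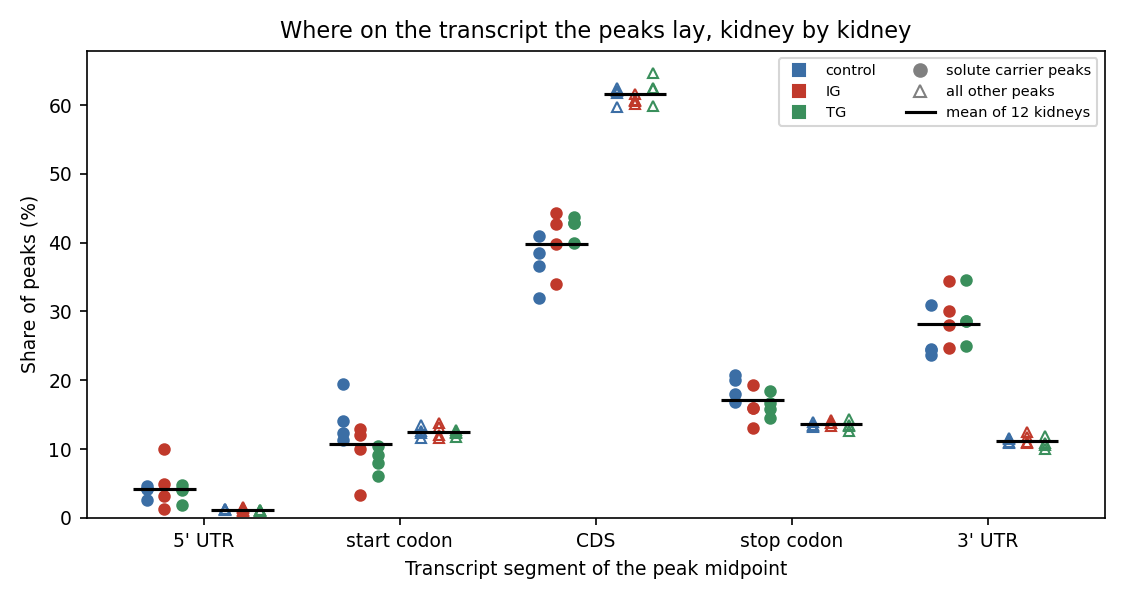
Share of peaks (%) by transcript segment of the peak midpoint, for solute carrier peaks (filled circles) and all other peaks (open triangles) in each kidney, coloured by group. Black lines are means of the 12 kidneys: 28.1% against 11.2% in the 3′ UTR and 39.9% against 61.6% in the CDS.

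By exon, last exons held 46.9% of 175 solute carrier loci that lay on the transcript with the longest CDS and 28.3% of 15818 other loci, first exons 12% and 8.71%, and internal exons 41.1% and 63.0%. The exon under the locus had a median length of 670 bp against 234 bp. The transcripts themselves differed too: the annotated 3′ UTR had a median of 1515 nt in the 127 genes, 794 nt in the 239 solute carrier genes without a peak and 1176 nt in the other 7647 genes with a peak, while CDS lengths were close (1527, 1641 and 1590 nt). Solute carrier peaks were also longer (median of 637 to 780 bp by kidney, against 313 to 412 bp for other peaks) and had the lower median score in 12 of 12 kidneys. The part of the longer last exons in these values was not tested.

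Few solute carrier peaks recurred in every kidney. Of the 127 genes, 12 (9.45%) had a peak in all 12 kidneys, against 24.5% of the other genes with a peak, and 27.6% were listed in a single kidney, against 14%. A single locus was found in 70.9% of the 127 genes and in 52.2% of the others. Slc12a2 had the most loci (5), all in coding exons between exons 19 and 25 of 27, followed by Slc39a10, Slc4a1ap and Slc4a4 with 4. Genes with 3 loci included Slc12a7, Slc39a6, Slc39a8, Slc25a48, Slc45a4 and Slc5a1.

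The 12 genes present in every kidney were drawn from 5 of the 10 classes. They were the zinc importers Slc39a6, Slc39a8 and Slc39a10 and the zinc exporter Slc30a6, the cation-chloride cotransporters Slc12a2 and Slc12a7, the sugar carriers Slc2a1 and Slc45a4, the mitochondrial carriers Slc25a33 (pyrimidine nucleotides) and Slc25a48, the sodium-proton exchanger Slc9a2, and Slc4a1ap. None was in the classes of amino acids, nucleosides, organic ions, phosphate or vitamins. Slc12a2 and Slc9a2 reached 12 kidneys only through several loci, and the other 10 genes held 12 single loci present throughout.

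Strong peaks marked some of these transcripts. At Slc45a4 locus 2, over the start codon in exon 2, the median score was highest, with 689 to 1975 in control, 311 to 688 in IG and 322 to 1003 in TG kidneys. Every IG kidney lay below every control there, by a narrow margin, while TG overlapped both. At Slc39a10 locus 1, which filled the 1025 bp coding exon 2, scores were 849 to 1229 in control, 136 to 667 in IG and 290 to 498 in TG. IG and control did not overlap at this locus either. At Slc12a7 locus 1, in exon 21, control scores of 222, 220, 193 and 200 lay above the IG scores of 13.4, 192, 85.8 and 35.8, but once centred per kidney IG replicate 2 fell within the control range. The opposite order was seen at the zinc importers Slc39a8 and Slc39a6. At Slc39a8 locus 3, scores were 45.8, 33.2, 405 and 19.4 in control, 149 to 265 in IG and 102 to 160 in TG, so that 1 control kidney lay above all others. At Slc39a6 locus 1 they were 218 to 491 in control, 401 to 626 in IG and 127 to 719 in TG. At Slc2a1 locus 2, in the 3′ UTR, scores were 336 to 1222 in control, 649 to 1721 in IG and 140 to 924 in TG, with all 3 groups overlapping. These are scores of the whole 1085 bp locus, which holds 3 GGACT, and not of the 1 shown above.

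**Figure D4:**
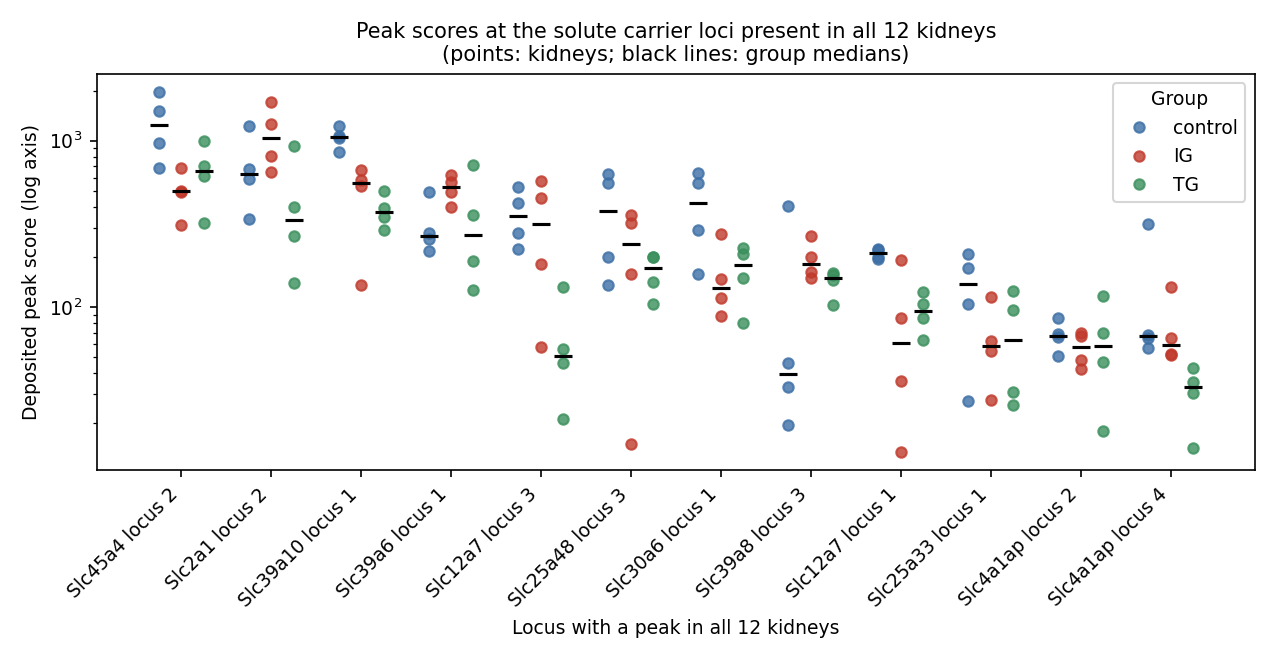
Deposited peak score (log axis) at the 12 solute carrier loci with a peak in all 12 kidneys. Points are kidneys coloured by group and black lines group medians. Slc39a10 locus 1 separates control (849 to 1229) from IG (136 to 667), while Slc2a1 locus 2 overlaps in all groups.

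None of these 12 loci passed an adjusted p of 0.05 for the score in either comparison (limma on log2 score centred per kidney, Benjamini-Hochberg over 2420 loci in all 12 kidneys). Over all loci, 11.6% were called higher and 8.1% lower in IvC, and 0.124% higher and 0.124% lower in TvI. Unadjusted p-values from limma were under 0.05 at 5 of the 12 loci in IvC and 2 in TvI, against 32% and 12.2% of all loci. The lowest adjusted value in IvC was at Slc12a7 locus 1 (log2 difference -1.82, SE 0.628, limma adjusted p = 0.0523), followed by Slc45a4 locus 2 (-1.16, SE 0.405, limma adjusted p = 0.0549). The largest difference upwards was at Slc39a8 locus 3 (1.84, SE 0.731, limma adjusted p = 0.0926). The median log2 difference in IvC was -0.55 over the 12 loci and 0.079 over all loci. Without IG replicate 4 it was -0.17 over the 12 loci. In TvI the medians were 0.13 and 0.064, with the lowest adjusted p of limma at Slc12a7 locus 3 (-1.89, SE 0.674, adjusted p = 0.276). The TvI median over the 12 loci was -0.11 without TG replicate 1 and -0.084 without IG replicate 2, so it had no stable sign. When loci needed a peak only in the 8 kidneys compared, Slc7a8 locus 1, in the 5′ UTR of the amino acid carrier LAT2, was higher in IG (log2 difference 2.55, SE 0.577, limma adjusted p = 0.00957). It was 1 of 17 solute carrier loci in that set (5.88%), against 10.7% of all 3040 loci. Its scores were 132, 66.4, 20.4 and 86.5 in control, 296, 429, 396 and 188 in IG, and 77.7, 87.2 and 47 in the 3 TG kidneys with a peak. The IG kidneys lay above all others there.

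Cisplatin-injured kidneys lacked peaks at 7 solute carrier loci that all 4 controls had (3.98% of 176 loci, against 2.73% of all loci), a share near that of all loci. At Slc5a3, the sodium/myo-inositol cotransporter of osmolyte uptake, a 4762 bp locus over its large exon 2 scored 627, 391, 163 and 1554 in control kidneys and was absent from all IG and TG kidneys. At Slc2a4, the insulin-responsive glucose transporter GLUT4, a peak over the start codon scored 167, 105, 153 and 120 in control, was absent from IG, and was listed again in 3 TG kidneys at 17.0, 15.9 and 24.9. These TG scores were close to the lowest in any list and below every control score.

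Slc7a1 locus 1, in the 3′ UTR, scored 107, 112, 31.7 and 95.0 in control, was absent from IG and reached 16.5 and 13.5 in 2 TG kidneys. Slc51a, a subunit of the basolateral bile acid transporter OST, had a peak over exon 2, near the start codon, at scores of 95.8, 16.9, 49.1 and 41.2, in control kidneys only. Also restricted to control among the 12 lists were Slc1a2 locus 1 (glutamate uptake, scores 18.3 to 70.7) and Slc30a4 locus 2 (zinc export, 18.5 to 67). Slc9a2 locus 1, in coding exon 10, was listed in 4 control kidneys at 17.3 to 40.6 and in 2 TG kidneys. Several of these scores lay near the lowest score in the lists.

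In the opposite direction, Slc38a1, the sodium-coupled neutral amino acid transporter SNAT1, was the only locus absent from all 4 controls and present in all 4 IG kidneys (0.568% of 176 loci, against 1.35% of all loci). Its 3′ UTR peak, 873 bp within the 5395 bp exon 16, scored 20.6, 48.7, 20.2 and 39.3 in IG and 35.7, 29.2, 22.2 and 30.7 in TG. The IG and TG kidneys overlapped, and none of these scores reached the median of all lists (71.3). Without IG replicate 1, the IG kidney with the fewest solute carrier peaks, 6 loci met the call in place of 1. With 1 kidney fewer the rule is looser, so such a count can only stay or rise. The share of all loci without this kidney was not computed.

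The exact two-sided Fisher test of a single locus gives p = 0.0286 for 4 of 4 against 0 of 4 kidneys, the smallest value this design allows. After Benjamini-Hochberg adjustment over 16061 loci in IvC no locus passed (lowest adjusted p = 0.701, exact test), and 655 were under 0.05 unadjusted. In TvI none of 13357 passed either (lowest adjusted p = 1, exact test), with 90 unadjusted. With 5901 peaks from every kidney, 3 solute carrier loci were present in all IG and no control kidneys (in Slc39a6, Slc4a1ap and Slc7a5) and 3 the reverse (in Slc2a4, Slc39a10 and Slc5a3). Each count was 2.65% of 113 solute carrier loci, against 1.97% of all loci gained and 1.93% lost, so the split moved with that of all loci. Slc2a4 and Slc5a3 were the only genes of the 8 calls that held both in these lists and among peaks at or above the median score.

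A difference of at least 3 kidneys in IvC was seen at 11 loci in favour of IG (6.25% of 176, against 3.82% of all loci) and at 14 in favour of control (7.95%, against 8.95%). Besides Slc38a1, those more often listed in IG carried varied substrates: bile acids (Slc10a2, in 1, 4 and 3 of the control, IG and TG kidneys), acidic amino acids and cystine (Slc7a13, 1, 4 and 4), magnesium (Slc41a2, 1, 4 and 4), glutamate (Slc1a3 locus 3, 0, 3 and 4), mitochondrial ATP-magnesium and phosphate (Slc25a24 locus 2, 0, 3 and 4), zinc (Slc30a2, 0, 3 and 2), the sulfate donor of the Golgi (Slc35b2, 0, 3 and 2), sulfate (Slc13a1 loci 1 and 2) and Slc16a9 of the monocarboxylate family (0, 3 and 4). Slc7a13 had the highest scores of these, at 496 to 1734 in IG and 537 to 3100 in TG. Its 1 listed control kidney, at 2583, lay above every IG kidney, so presence and score did not move together there.

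Besides the 7 loci above, those more often listed in control were in Slc16a1, Slc8a1, Slc16a4, Slc2a5, Slc31a2, Slc35e2 and Slc39a10. Slc8a1, the sodium-calcium exchanger NCX1, had locus 1 in 3 control, 0 IG and 1 TG kidneys. Slc2a5, the fructose transporter GLUT5, had its start codon locus in 3 control kidneys and no other. Slc39a10 locus 3, in coding exon 6, was in 4, 1 and 0 kidneys, while locus 1 of the same transcript was in all 12. Counted by gene, 1 of 119 solute carrier genes was gained (0.840%, against 1.9% of all genes) and 4 were lost (3.36%, against 3.16%): Slc1a2, Slc2a4, Slc5a3 and Slc7a1.

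**Figure D5:**
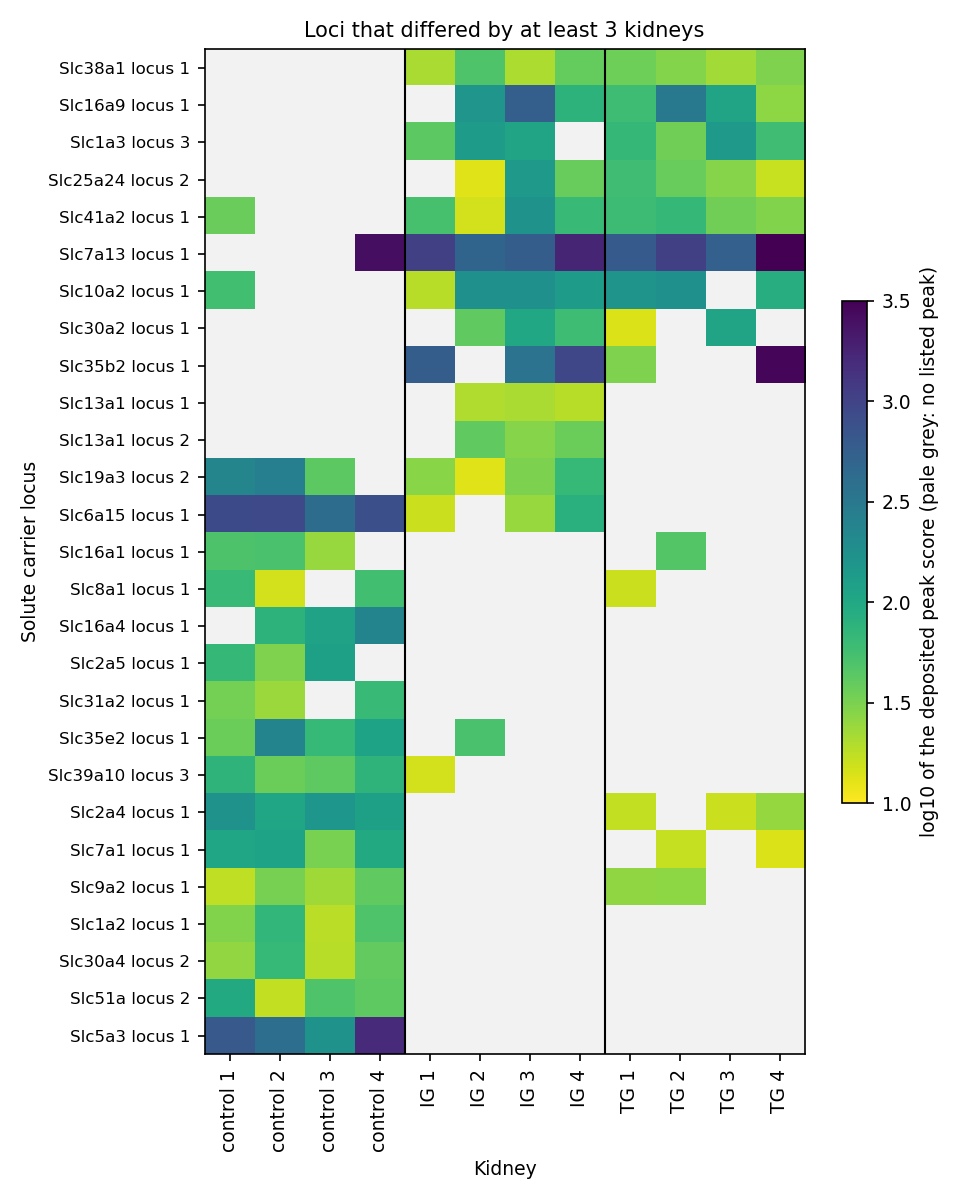
Peak score (colour, log10 of the deposited score) in each kidney (x axis) at the solute carrier loci that differed by at least 3 kidneys in either comparison (y axis). Pale grey marks kidneys with no listed peak. Slc5a3 locus 1 is listed in the 4 control kidneys alone, Slc38a1 locus 1 in the 8 IG and TG kidneys, and Slc13a1 loci 1 and 2 in 3 IG kidneys.

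Berberine-pretreated kidneys differed from IG at few solute carrier loci. Slc19a3, a thiamine transporter, was the only locus with a peak in all 4 IG and no TG kidneys (0.662% of 151, against 0.449% of all loci). Its 3′ UTR locus scored 27.7, 13.1, 31.1 and 66.7 in IG and 232, 262 and 42.7 in 3 control kidneys. The IG scores were low beside the first 2 control kidneys. The call was lost with lists of equal length (0 loci, against 0.258% of all loci) and among scores at or above the median (0, against 0.5%). It was met by 3 loci without IG replicate 1 and by 2 without IG replicate 2, where a looser rule lets the count only stay or rise. The shares of all loci without these kidneys were not computed. No solute carrier locus was present in all TG and absent from all IG kidneys (0 of 151, against 0.225% of all loci). The genes gave the same picture, with 0 of 106 gained (0.255% of all genes) and 1 lost (0.943%, against 0.51%).

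At a difference of at least 3 kidneys in TvI, Slc2a4 locus 1 was gained (0.662%, against 1.28% of all loci) and 4 loci were lost (2.65%, against 3.21%). Slc6a15, a neutral amino acid transporter, had a 5′ UTR peak at 870, 893, 414 and 776 in control, at 16, 24.3 and 81.6 in 3 IG kidneys and in no TG kidney. Every IG kidney lay below every control. Slc13a1, the apical sodium-sulfate cotransporter, had peaks over coding exons 4 and 5 in IG replicates 2, 3 and 4 only, at 18.4 to 20.6 and 28.6 to 41. Both loci share their gene and kidneys and were low in score.

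Loci of opposite direction in the 2 comparisons were Slc2a4 locus 1 (4, 0 and 3 of the control, IG and TG kidneys) and Slc13a1 loci 1 and 2 (0, 3 and 0 each). The share of such loci over all loci was not computed, so these 3 were not read as a trait of solute carriers. IvC and TvI share the IG kidneys, so a low or high IG value enters both. Leaving out TG replicate 2, the TG kidney without the Slc2a4 peak, made that locus meet the call of presence in all TG and no IG kidneys by construction. Nothing was drawn from it. None of the 3 loci kept its difference of 3 kidneys in TvI under other settings. With lists of equal length the difference was 2 kidneys at Slc2a4, -2 at Slc13a1 locus 2 and 0 at Slc13a1 locus 1, and among scores at or above the median it was 0 at all 3. In IvC, Slc2a4 kept its difference under both settings, while Slc13a1 fell to 2 and 0 kidneys at locus 2 and to 0 at locus 1.

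Within 4 transcripts, loci differed by at least 2 kidneys in both directions in IvC, or 10.8% of the 37 solute carrier genes with several loci, against 7.72% of 3654 other genes. In Slc9a2, the exon 10 locus was in 4 control and 0 IG kidneys and the stop codon locus in 2 control and 4 IG kidneys. In Slc2a5, the start codon locus was in 3 and 0 kidneys and the 3′ UTR locus in 0 and 2. Slc25a24 had locus 2 in 0 and 3 kidneys and locus 3, at the stop codon, in 2 and 0. Slc4a4, the basolateral sodium-bicarbonate cotransporter, had locus 2 in 2 and 0 and locus 4, in coding exon 23, in 2 and 4.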

How the data were processed

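MeRIP-seq peak lists of 12 kidneys were used, 4 mice a group. Per the study's methods and the submitters' processing notes, the authors trimmed reads with Cutadapt 1.9.3, aligned them with HISAT2 2.0.4 to mm10 (GRCm38) and called peaks with MACS in each kidney, keeping those over mRNA exons. The MACS version, threshold and control library, and whether the listed strand came from reads, are not given in the sources used here. The deposited value is a score of -10 times log10 of the p-value, not scaled between kidneys and tied at 3100 near its ceiling.

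Peaks were assigned to GENCODE M21 protein-coding genes by at least 1 bp of exon on the listed strand. Of 186 solute carrier loci, 4 overlapped an exon of the opposite strand and 1 (Slc10a5) another gene's exon. These, and loci of the closely related Slc22 genes, are uncertain. Segments were read at peak midpoints on the transcript with the longest CDS. Presence was tested with Fisher's exact test (scipy 1.17.1) and scores with limma 3.58.1 (R 4.3.3, trend, all 12 kidneys), both tested on simulated data and adjusted by Benjamini-Hochberg over all loci. Replicate numbers share no stated litter or batch.

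Members, classes, kidney roles and markers were chosen with earlier results of these data known. Named were the loci with a 4 against 0 call (up to 12 per direction by mean score), loci past the score threshold (up to 10), the 10 loci of highest median score among those in all 12 kidneys, the 10 genes with the most loci, loci of opposite direction in both comparisons, and the role lists. Slc7a8, Slc6a15, other loci differing by 3 kidneys and genes with loci in both directions were singled out after their values were seen. Alternatives were equal list lengths, scores at or above the median, other joining of peaks, other centring and leaving out each kidney.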

Additional observations from a re-analysis of the deposited data

Results flagged for a closer look

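Of 48 groups of 4 kidneys examined, 1 held a kidney far from the other 3, where chance flags about 1 in 20 groups. It was IG replicate 1 at Slc39a10 locus 1, with a log2 score of -0.90 relative to the kidney's median, against 1.12 to 1.37 in the other IG kidneys. All 4 control kidneys lay above the IG kidneys at this locus, which leaving out the lowest IG kidney could not change.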

How the results depend on the processing

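Depth is unknown, so how many missing peaks lie just under the caller's threshold was not tested. With the same number of peaks from every kidney, IvC calls were 3 gained and 3 lost in place of 1 and 7. Each count of 3 was 2.65% of solute carrier loci, against 1.97% of all loci gained and 1.93% lost. The loss in TvI went from 1 to 0, against 0.258% of all loci. The difference in genes per kidney in IvC was 8.75 in place of -2.75. That difference had no stable sign, running from -7.83 without IG replicate 3 to 2.17 without IG replicate 1, with -0.58 without control replicate 4, -1.17 without IG replicate 4, -4.17 without IG replicate 2 and -4.25 without control replicate 2. In peaks per kidney it ran from -9.5 to 4.83 without the same 2 IG kidneys. Among scores at or above the median, 0 of 74 were gained in IvC and 4 (5.41%) lost, against 1.21% and 3.11% of all loci. In TvI 0 of 61 were lost, against 0.5% of all loci. Counting by gene gave 4 losses in IvC (3.36%, against 3.16% of all genes). That count and the counts without Slc4a1ap and Slc7a6os were chosen after seeing the data. The latter and other joining of peaks moved no call count. Leaving out 1 kidney gave 1 to 6 gained in IvC, and 0 to 1 gained and 1 to 3 lost in TvI. The highest were without IG replicate 1 for the gains in IvC and the losses in TvI. Such counts can only stay or rise with 1 kidney fewer, and the shares over all loci were not computed.

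For the score, 1 of 12 solute carrier loci was called lower in IvC without centring, beside 233 of all 2420 loci. Among loci in all 8 kidneys 1 of 17 was called higher, beside 324 of 3040. Leaving out 1 kidney gave 0 to 1 in each direction in IvC. The count was 1 lower without control replicate 1, IG replicate 2 or TG replicate 4, beside 127, 187 and 209 of all 2420 loci. It was 1 higher without control replicate 3, beside 247. Over all loci in IvC, percentile ranks gave 162 higher, and leaving out 1 kidney gave 127 to 209 lower. In TvI the 3 higher and 3 lower fell to 0 higher under each of 4 other settings, and to 0 lower with the replicate block or with loci in all 8 kidneys. Leaving out 1 kidney gave 0 to 3 higher and 0 to 2 lower. The fit with a replicate block called 265 loci higher and 191 lower in IvC, and 0 of the solute carrier loci. Correlations of same-numbered kidneys ran from -0.015 to 0.109, so the numbers did not pair the kidneys.

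With codon segments of 100 nt the CDS share of solute carrier peaks was 45%, the stop codon share 8.36% and the 3′ UTR share 34.1%, against 69.5%, 6.33% and 14.5% of other peaks. Of 9 named calls of 4 against 0 kidneys, 7 were lost with equal list lengths and 7 among scores at or above the median (all but Slc2a4 and Slc5a3 in IvC). The other 5 named differences, of 3 kidneys, fell to 2 or 0 with equal list lengths and to 0 among the higher scores. None changed sign. Causes were not tested.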
